A study of Mus musculus with 8 samples.

Results

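The genes of the major histocompatibility complex (MHC) and of antigen presentation comprised 34 of the 18193 genes that the arrays named. They were chosen by name: every gene whose only platform symbol began with H2- (23 genes), and 11 partners outside that naming. They fell into 22 class I genes, 11 class II genes and H2-Ke6, which lies in the MHC region by its name but encodes a steroid dehydrogenase and no MHC molecule. The class I genes were 13 heavy chains, the light chain B2m, the peptide transporter subunits Tap1 and Tap2, the loading factor Tapbp, the trimming peptidase Erap1, the immunoproteasome subunits Psmb8, Psmb9 and Psmb10, and the transactivator Nlrc5. The class II genes were 9 chains and peptide exchange factors, the invariant chain Cd74 and the transactivator Ciita.

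Class I molecules carry peptides of a cell's own proteins to its surface for cytotoxic T cells and are made by most nucleated cells. Proteasomes cut these peptides, the TAP transporter moves them into the endoplasmic reticulum, Erap1 trims them and tapasin (Tapbp) helps load them on heavy chains paired with B2m. Class II molecules carry peptides of ingested proteins and are made mainly by B cells, dendritic cells and macrophages, where the invariant chain guards the groove and the DM molecule exchanges peptides under the control of its inhibitor DO. Interferons raise much of this machinery, and embryonic stem cells are known for low class I expression.

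The series asked how loss of the zinc finger transcription factor Zfx alters expression in 2 kinds of mouse stem cell. Embryonic stem cells (ESC) were clones, either Zfx-flox (the gene flanked by loxP sites) or Zfx-null (the gene deleted), grown without feeder cells on gelatin with LIF and 15% serum replacement. The labels do not tie an array to a particular clone. The samples named hematopoietic stem cells (HSC) are the LSK fraction of marrow (Lin- Sca-1+ c-Kit+), a gate that also holds multipotent progenitors, pooled from 4 to 6 animals of a group. The HSC Zfx-cko animals were Mx1-Cre+ Zfx flox/y and the HSC Zfx-flox animals were their Zfx flox/y littermates without Cre, and marrow was taken 4 days after the last injection of pI·C. That agent induces interferon, which turns on the Mx1 promoter and thereby Cre, so interferon exposure belongs to the design of both HSC groups while Cre was present only in Zfx-cko. Each of the 4 groups had 2 arrays, so the arrays of 2 groups can separate without an effect. The share of genes whose groups separated was not counted over all genes. P-values rest on the spread between arrays within groups, pooled over the 4 groups and drawn toward that of other genes by the limma fit. Since samples were hybridized in duplicate, that spread may be technical.

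Values are deposited probe set signals in linear units, with 1 probe set per gene, the one with the highest mean over the 8 arrays. A gene was tested in a comparison when its probe set reached the 40th percentile of mean signal there, and changes are differences of log2(signal + 14.2) from a limma fit, given with their standard error and a p-value adjusted over all genes tested. The threshold was an adjusted p of 0.05. Of the 34 genes, 23 were tested in ESC, 29 in HSC and 22 in both. Ciita, H2-D4, H2-M9 and H2-Q2 passed in neither cell type and read 1.61 to 50.7 on all arrays. The genes that passed in HSC alone passed because they were bright there, so their number is no result.

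Pearson's r between the arrays of a group was 0.995 to 0.998 over all probe sets, and no group's arrays held identical values. The summed signal of 7 ESC markers lay between 18548 and 31076 on ESC arrays and between 172 and 217 on HSC arrays, and Nanog read at most 1.98 on the latter. The summed signal of 6 LSK markers was 4308 and 4516 in HSC Zfx-flox against 11875 and 12243 in Zfx-cko. The 4 probe sets that name Zfx alone read higher, not lower, on the Zfx-null than on the Zfx-flox ESC arrays (log2 change 0.79 to 1.65, adjusted p = 0.000408 to 0.00292). A set that also carries a pseudogene's symbol, 1422249_s_at, read 285 and 298 on the Zfx-flox but 1.32 and 0.878 on the Zfx-null arrays (−4.32, adjusted p = 4.14e-05). In HSC it was too dim to test, and of the other sets 1 was higher in Zfx-cko (1425972_a_at, 0.72, adjusted p = 0.00103) and 0 were lower by limma, or 1 at an unadjusted p of 0.05 (1419565_a_at, −0.49, unadjusted p = 0.0465). Which of these sets cover the deleted exons is not stated in the labels, so the HSC values check no label.

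Promoters of MHC genes share a module of boxes, among them X2, bound by CREB-type factors, and Y, bound by NF-Y, on which the transactivators Ciita and Nlrc5 assemble. RefSeq promoter windows (assembly GRCm38.p6, 250 bases before to 50 after the start) existed for 23 of the 34 genes. The X2 core TGACG followed 10 to 25 bases further on by the Y core ATTGG occurred in 5 of these 23 (21.7%), against 0.681% of 27025 genes with a window of the same length. The 5 genes were B2m, H2-K1, H2-D1, H2-M3 and the class II chain H2-Aa. Their stretches are shown because the first 4 of them were called higher in Zfx-null ESC, as described further on. The calls of H2-D1 and H2-M3 were lost under some alternatives. Capitals mark the X2 and Y cores of the pair, a GAAANNGAA interferon response core in B2m, and GGGNNTTCC, a form of the NF-kappaB site, in H2-K1, H2-D1 and H2-Aa. Further matches in these stretches were not marked. They are a Y core on the other strand (CCAAT) in H2-M3, and in H2-Aa an X2 core on the other strand (CGTCA) and AGGCCT. Each is read 5′ to 3′ on the strand of its gene.
B2m, chr2:122147537-122147647, plus strand: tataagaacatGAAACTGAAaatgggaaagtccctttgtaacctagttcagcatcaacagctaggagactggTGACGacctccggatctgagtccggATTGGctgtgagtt
H2-K1, chr17:34000353-34000463, minus strand: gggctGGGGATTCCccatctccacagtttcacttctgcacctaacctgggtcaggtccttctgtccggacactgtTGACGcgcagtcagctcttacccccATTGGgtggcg
H2-D1, chr17:35262914-35263024, plus strand: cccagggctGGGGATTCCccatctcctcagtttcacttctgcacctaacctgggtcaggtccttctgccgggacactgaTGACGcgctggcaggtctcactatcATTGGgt
H2-M3, chr17:37270174-37270224, plus strand: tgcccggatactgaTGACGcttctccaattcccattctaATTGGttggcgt
H2-Aa, chr17:34287863-34287963, minus strand: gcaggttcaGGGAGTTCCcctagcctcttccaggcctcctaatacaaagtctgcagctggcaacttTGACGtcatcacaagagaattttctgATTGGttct
The cores stood 20 bases apart in the 4 class I promoters and 21 apart in H2-Aa. The pair matched once in each window (H2-K1 had 2 overlapping windows), and a match is a string of letters, not a shown binding site.

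Of the single motifs, searched on both strands, the Y core occurred in 18 of the 23 genes (78.3%, against 41.1% of all genes) and the X2 core in 8 (34.8% against 23.0%). GAAANNGAA occurred in 2 (8.70% against 9.76%), the STAT core TTCNNNGAA in 3 (13.0% against 9.55%) and GGGNNTTCC in 4 (17.4% against 6.58%). AGGCCT, a core of the Zfx site, occurred in 4 (17.4% against 11.6%), namely H2-Aa, H2-Eb2, H2-Ke6 and H2-T3. The chains of DO, H2-Ob and H2-Oa, which were higher in Zfx-cko HSC, held a Y core but no TGACG in their windows, and are shown with that core in capitals.
H2-Ob, chr17:34238785-34238865, plus strand: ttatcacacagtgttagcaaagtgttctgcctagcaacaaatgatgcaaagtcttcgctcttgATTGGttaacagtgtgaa
H2-Oa, chr17:34092279-34092349, plus strand: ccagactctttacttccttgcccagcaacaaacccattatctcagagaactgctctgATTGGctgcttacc
Tap1 and Psmb9 start in opposite directions with 225 bases between their starts. That shared stretch is shown on the strand of Tap1, with an X2 core near Tap1 and a Y core, here as CCAAT, near Psmb9 in capitals.
Tap1 to Psmb9, chr17:34187331-34187555, plus strand: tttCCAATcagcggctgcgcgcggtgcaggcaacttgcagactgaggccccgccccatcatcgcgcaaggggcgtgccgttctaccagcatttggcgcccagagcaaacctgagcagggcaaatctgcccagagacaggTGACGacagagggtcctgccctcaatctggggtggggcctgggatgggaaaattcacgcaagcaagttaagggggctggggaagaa

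With Zfx intact, the light chain, peptide supply and loading genes read higher in HSC than in ESC (8 of 8). On the log2 scale, which adds a constant to each signal, the immunoproteasome subunits Psmb8 and Psmb9 had the largest differences of all members. That ranking depends on the constant. In mean signal of HSC Zfx-flox over ESC Zfx-flox, H2-Ob (87.1-fold) and H2-Ab1 (81.6-fold) exceeded Psmb8 (66.0-fold) and Psmb9 (57.3-fold). Both class II genes read near the floor in Zfx-flox ESC. Of the 22 genes tested in both cell types, 14 were higher in HSC Zfx-flox than in ESC Zfx-flox, by 1.12 to 5.57 on the log2 scale, and 1 was lower. A further 7 were tested between the Zfx-flox groups because they were bright in 1 cell type, so their calls were built in by the filter. These were Nlrc5, H2-Q5, H2-T24, H2-Ab1, H2-Oa and H2-Ob, all higher in HSC, and H2-Q10, lower there, which makes 20 higher and 2 lower of 29. Over all 12672 genes tested, 33.9% were higher and 43.1% lower. Higher calls made up 44.0% of all calls, and 54.1% when all arrays were quantile normalized together. The median over all genes was −0.20. Cell type cannot be told apart from amplification here, because HSC RNA went through 2 rounds and ESC RNA through 1. Nor can it be told apart from culture against marrow, or from pI·C and the interferon it induces, which belonged to the HSC groups alone.

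Psmb8, the immunoproteasome subunit that replaces Psmb5, read 30.3 and 39.5 in Zfx-flox ESC and 2253 and 2357 in Zfx-flox HSC (5.57 ± 0.11, adjusted p = 2.17e-09). Psmb9 read 53.6 and 53.9 in ESC and 3050.0 and 3101 in HSC (5.51 ± 0.19, adjusted p = 2.65e-08). Both subunits were thus dim in ESC, while Psmb10 was not, at 512 and 517 in ESC and 2432 and 2555 in HSC (2.25 ± 0.06). Nlrc5, which switches on class I promoters, read 33.6 and 17.7 in ESC and 782 and 845 in HSC (4.40 ± 0.21). It entered through its HSC signal, so this gap is a description and no test. The classical heavy chains were well above the dim range in both cell types. H2-K1 read 1130.0 and 1046 in ESC and 5864 and 5820.1 in HSC (2.41 ± 0.06), and H2-D1 read 587 and 542 and 3280.0 and 3406 (2.54 ± 0.06). B2m, Tap1, Tap2, Tapbp, Erap1, H2-M3, H2-Q5 and H2-T24 were also higher in HSC, by 1.69 (Tap2) to 3.08 (H2-Q5). Of these, H2-Q5 and H2-T24 entered through their HSC signal. Tapbp depends on the probe set: its other one, 1450378_at, read 331 and 338 in ESC but 4.56 and 3.03 in HSC, and with the mean of both sets Tapbp was lower in HSC (−1.24, adjusted p = 1.53e-06).

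The 2 genes lower in HSC were both class I heavy chains. H2-Bl, named for the blastocyst, read 287 and 240.1 in ESC and 79.5 and 58.6 in HSC (−1.75 ± 0.22, adjusted p = 8.87e-05). H2-Q10, a secreted class I molecule made by liver, read 79.5 and 63.9 in ESC and 10.9 and 3.44 in HSC (−2.02 ± 0.34). It was no longer tested without either ESC Zfx-flox array, with a filter at the 60th percentile or with quantile normalization of all arrays. H2-M10.1, H2-T3 and H2-T18 did not pass the threshold, and the H2-M10.1 arrays of ESC Zfx-flox lay far apart, at 7.06 and 80.6.

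**Figure D1:**
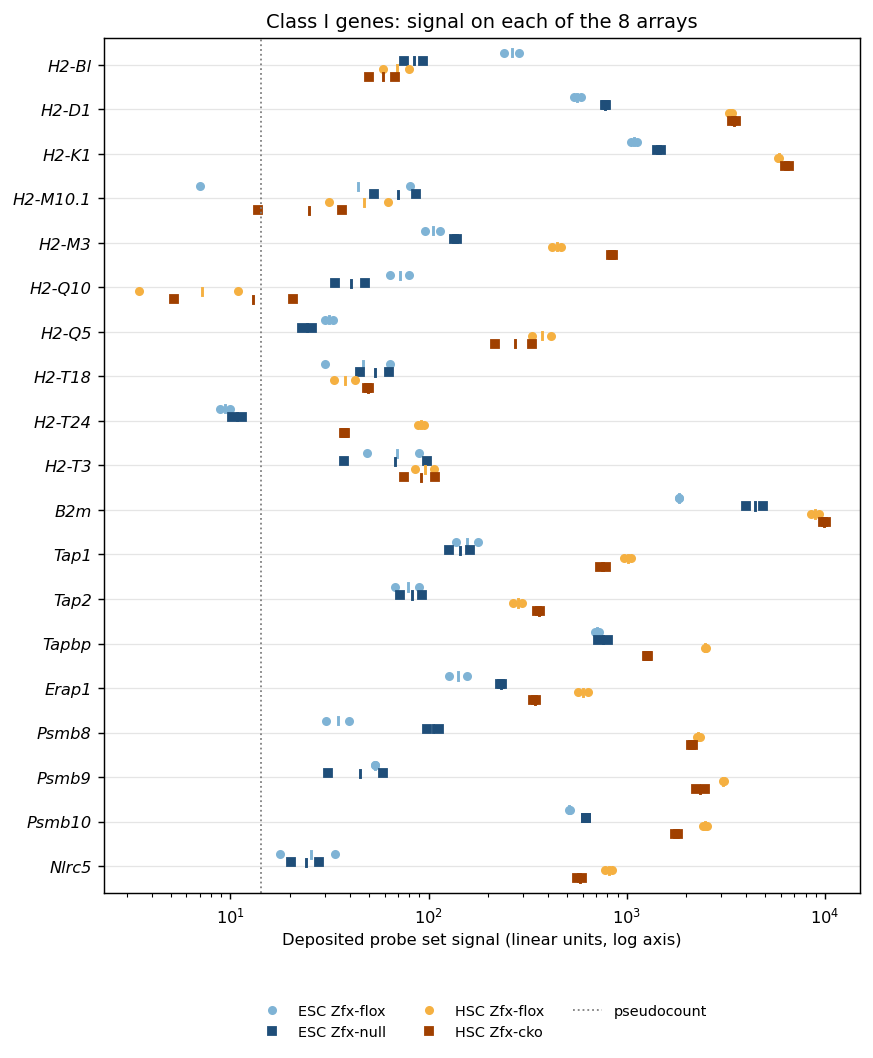
Deposited signal of the 19 class I genes that were tested in either cell type, on each of the 8 arrays, on a log axis. Circles are Zfx-flox and squares Zfx-null or Zfx-cko arrays, short bars are group means of 2 arrays, and the dotted line is the pseudocount of 14.2. Psmb8, Psmb9 and Nlrc5 show the widest gaps between ESC and HSC, of which Nlrc5 was tested only through its HSC signal. Levels of different genes are not comparable because probe sets differ.

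Among the 6 class II genes tested in both cell types, H2-Aa, H2-DMa and H2-Eb1 were higher in HSC Zfx-flox and 0 lower, and H2-Ab1, H2-Oa and H2-Ob entered through their HSC signal. H2-Ab1, a beta chain of the classical I-A molecule, read 5.95 and 4.66 in ESC and 395 and 471 in HSC (4.51 ± 0.35). Its partner H2-Aa read 57.3 and 48.4 and 897 and 814 (3.70 ± 0.14). The ESC arrays were near the floor for the beta chain and low for the alpha chain. H2-Ob and H2-Oa, the chains of DO, were higher in HSC by 3.93 ± 0.19 and 2.99 ± 0.27. H2-DMa, a chain of the exchange factor DM, read 49.8 and 73.1 in ESC and 262 and 293 in HSC (1.96 ± 0.18). Cd74, an abundant transcript of class II-positive cells, did not differ detectably, at 122 and 112 in ESC and 135 and 86.2 in HSC (−0.10 ± 0.27, 95% interval −0.72 to 0.52). Ciita read 37.8 and 32.9 in ESC and 33.0 and 25.4 in HSC and was too dim to test.

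**Figure D2:**
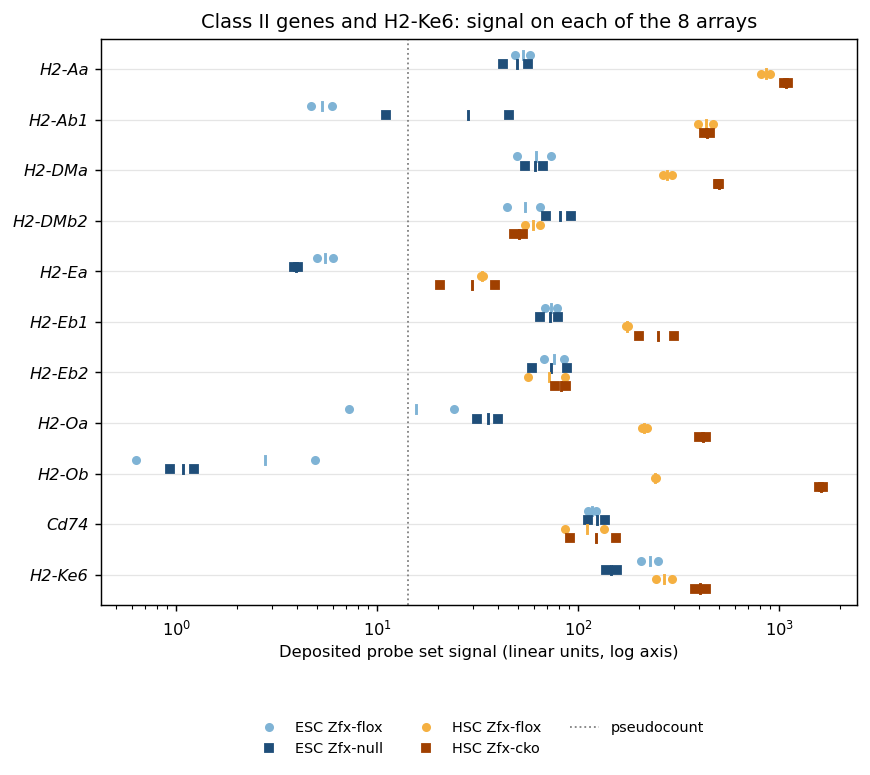
Deposited signal of the 10 class II genes that were tested in either cell type, and of H2-Ke6, on each of the 8 arrays, on a log axis, with the symbols of the class I plot. H2-Ob reads under 5 on the ESC arrays, near 242 in HSC Zfx-flox and near 1611 in HSC Zfx-cko, and the Cd74 arrays of the 4 groups overlap.

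In ESC, loss of Zfx came with more B2m, more immunoproteasome Psmb8, more Erap1 and modestly more classical heavy chain signal. None of the 6 class II genes bright enough to test passed, and the others were not tested. Of 23 genes tested, 7 were higher in Zfx-null and 2 lower. Over all 12677 genes tested, 15.6% were higher and 14.7% lower. Among 16 class I genes, 7 were higher, 1 was lower and 8 did not pass, with a median log2 change of 0.24. Class II genes had 0 of 6 past the threshold, 0 at an unadjusted p of 0.05 in the same limma fit, and a median of −0.01, and all genes a median of −0.03. Of 5 tested genes with a promoter pair of X2 and Y cores 4 were higher and 0 lower in ESC, against 3 higher and 1 lower of 14 whose windows lacked it, a description chosen with these calls known. In HSC the same counts were 1 higher and 0 lower of 5, against 4 higher and 4 lower of 15. Of the 4 ESC calls, that of H2-M3 was lost under 12 of 20 alternatives and that of H2-D1 under 2 of 20. A part of the promoter pair in these changes was not tested.

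B2m, the shared light chain without which class I molecules do not stay at the surface, read 1828 and 1836 on the Zfx-flox arrays against 4004 and 4905 in Zfx-null. This was a 2.43-fold difference in mean signal (1.27 ± 0.09, adjusted p = 6.13e-05). Its other probe set, 1449289_a_at, gave the same direction, at 1298 and 1245 against 3698 and 3331 (log2 change 1.46). Psmb8 read 30.3 and 39.5 on the Zfx-flox and 112 and 98.6 on the Zfx-null arrays, 3.02-fold in mean signal (1.29 ± 0.11, adjusted p = 0.000114). Even so, Zfx-null ESC stayed far below the HSC range of this gene. Erap1, the peptidase that trims peptides to class I length, read 157 and 126 against 231 and 236 (0.68 ± 0.12, adjusted p = 0.00333). Psmb10 read 512 and 517 against 622 and 623 (0.27 ± 0.06, adjusted p = 0.00919), a small change that missed the threshold with median centring (adjusted p = 0.0667) or without the variance trend (0.0736). The remaining immunoproteasome subunit did not follow: Psmb9 read 53.6 and 53.9 against 31.1 and 59.1 (−0.24 ± 0.19, adjusted p = 0.395), and without Zfx-null replicate 2 it was lower (−0.58, adjusted p = 0.00633).

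The classical heavy chain H2-K1 read 1130.0 and 1046 on the Zfx-flox and 1483 and 1422 on the Zfx-null arrays (0.41 ± 0.06, adjusted p = 0.00135). H2-D1 read 587 and 542 against 786 and 774 (0.46 ± 0.06, adjusted p = 0.000995). Mean signals differed by 1.33-fold for H2-K1 and 1.38-fold for H2-D1. Heavy chains are nearly alike in sequence, and both representative probe sets end in _x_at, the mark of probes that may read other transcripts too. Of 9 probe sets of H2-D1, 4 were tested in ESC and 3 were higher. The tested set without that suffix, 1426324_at, read 55.1 and 96.5 against 91.9 and 73.9 and was not past the threshold (0.14, adjusted p = 0.659), nor was the mean of all sets (0.07, adjusted p = 0.706). Of 4 probe sets of H2-K1, 2 were higher. H2-M3, which presents formylated peptides of bacteria and mitochondria, read 95.5 and 114 against 139 and 134 (0.34 ± 0.11, adjusted p = 0.047). That call was lost without Zfx-flox replicate 1 (adjusted p = 0.195), Zfx-null replicate 1 (0.138) or 2 (0.0988) or any HSC array (0.0647 to 0.0826), and with the replicate number as a block (0.0502).

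H2-Bl moved the other way. It read 287 and 240.1 on the Zfx-flox and 75.4 and 94.0 on the Zfx-null arrays (−1.49 ± 0.22, adjusted p = 0.00153), so that Zfx-null ESC came near the HSC range. H2-Ke6, the steroid dehydrogenase, read 205 and 249.9 against 156 and 137 (−0.59 ± 0.14, adjusted p = 0.0162), a call lost without Zfx-flox replicate 2 (−0.45, adjusted p = 0.0931) or Zfx-null replicate 2 (−0.50, 0.0813). The transporter and its partner gave no call. Tap1 read 137 and 177 against 127 and 161 (−0.11 ± 0.14, 95% interval −0.43 to 0.22), Tap2 67.8 and 89.5 against 72.1 and 92.7 (0.06 ± 0.17, −0.33 to 0.45), and Tapbp 694 and 722 against 807 and 718 (0.10 ± 0.07, −0.06 to 0.26). H2-M10.1 was higher only without Zfx-flox replicate 2 (1.95, adjusted p = 0.0305). H2-Q10, H2-T3 and H2-T18 did not pass. The 6 tested class II genes changed by −0.08 (H2-Aa) to 0.47 (H2-DMb2), the latter at 64.8 and 44.4 against 69.3 and 92.0 (adjusted p = 0.186).

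Markers moved with the same ESC comparison. Of 7 ESC markers 4 were lower in Zfx-null, with summed signals of 30047 and 31076 on Zfx-flox and 18548 and 19409 on Zfx-null arrays, and Tdgf1 fell most (−1.19). Of 8 fibroblast markers 4 were higher, with sums of 11526 and 11881 against 20588 and 21796. Their part in the class I changes was not tested. In bulk RNA, fewer cells of a type and less RNA per cell cannot be told apart.

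**Figure D3:**
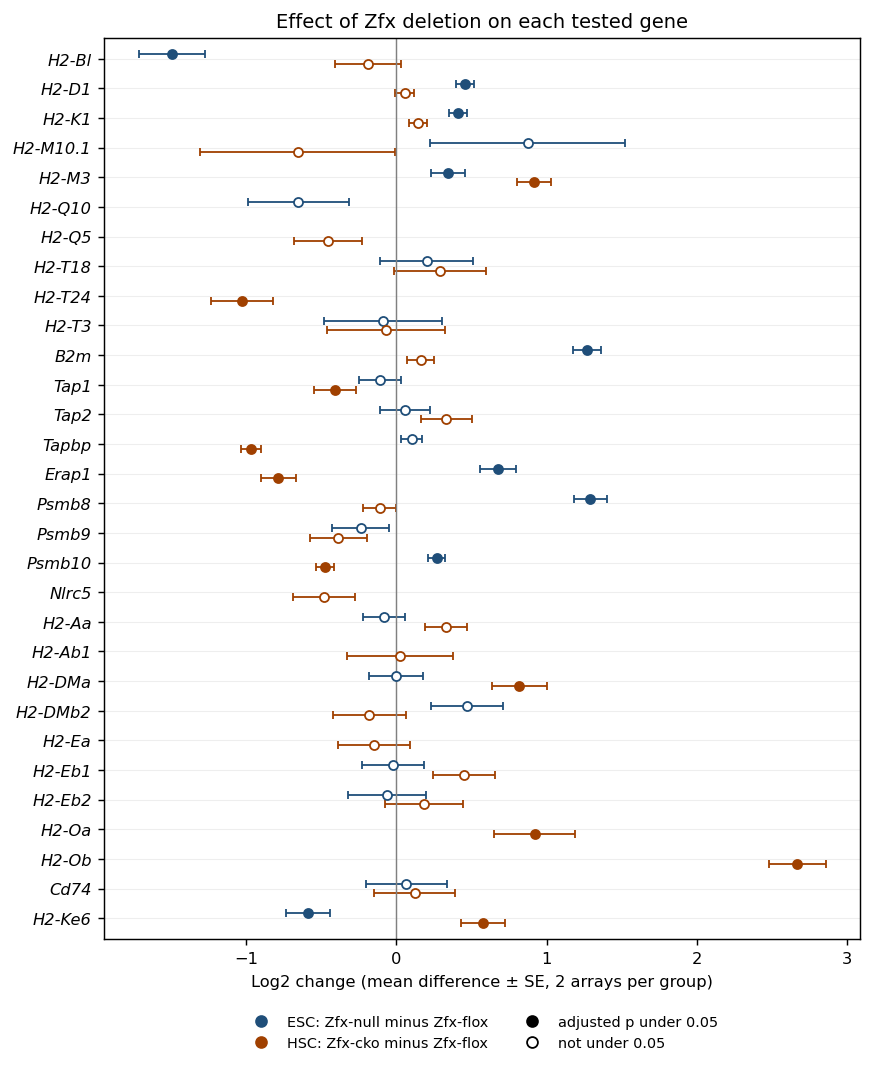
Log2 change of each tested gene in ESC (blue, Zfx-null minus Zfx-flox) and in HSC (brown, Zfx-cko minus Zfx-flox), with standard errors from the fit and 2 arrays per group. Filled circles passed an adjusted p of 0.05. B2m and Psmb8 lie to the right in ESC, Tapbp, Erap1 and Psmb10 to the left in HSC, and H2-Ob lies farthest to the right at 2.67 in HSC.

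In HSC, loss of Zfx came with lower signals of 4 of 8 light chain, peptide supply and loading genes (Tapbp, Erap1, Psmb10 and Tap1) and with higher signals of both DO chains and of H2-DMa, 1 chain of DM. Of 29 genes tested, 5 were higher in Zfx-cko and 5 lower. Over all 12535 genes tested, 22.4% were higher and 19.7% lower, so the shares of called genes do not set this group apart from others. With the HSC arrays fitted alone, 8 genes were higher and 7 lower. Among 18 class I genes, 1 was higher, 5 were lower and 12 did not pass, with a median of −0.29. Among 10 class II genes, 3 were higher, 0 were lower (0 also at an unadjusted p of 0.05 in limma) and 7 did not pass, with a median of 0.26, against 0.03 for all genes.

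Tapbp, which holds empty class I molecules at the transporter until a peptide binds, read 2501 and 2497 on the Zfx-flox and 1266 and 1278 on the Zfx-cko arrays. The mean signal was 1.96-fold lower in Zfx-cko (−0.97 ± 0.07, adjusted p = 1.61e-05), with the arrays of each group nearly equal. The probe set 1450378_at of the same gene was near the floor in all HSC arrays and was not tested there. Erap1 read 636 and 571 against 338 and 349.7 (−0.78 ± 0.12, adjusted p = 0.000871). Its other probe set, 1439068_at, read 112 and 108 against 68.8 and 51.1 (log2 change −0.76, adjusted p = 0.0632). Psmb10 read 2432 and 2555 against 1762 and 1822 (−0.47 ± 0.06, adjusted p = 0.000278). The groups of these 3 genes did not overlap on the probe sets named first, which with 2 arrays per group says little by itself.

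Tap1 read 968 and 1056 on the Zfx-flox and 735 and 783 on the Zfx-cko arrays (−0.41 ± 0.14, adjusted p = 0.0476), a call lost under 10 of 20 alternatives. Averaged over its probe sets, the change was −0.09 (adjusted p = 0.756), and each of the 4 HSC arrays was needed for the call. Its adjusted p was 0.191 without Zfx-cko replicate 1, 0.112 without Zfx-cko replicate 2, 0.0974 without Zfx-flox replicate 1 and 0.207 without Zfx-flox replicate 2. Psmb9, Tap1's neighbour across the shared stretch, read 3050.0 and 3101 against 2475 and 2233 (−0.39 ± 0.19, adjusted p = 0.14), and was lower with the HSC arrays alone (adjusted p = 0.00316) or without Zfx-null replicate 1 (0.00547) or 2 (0.00596) of ESC. Nlrc5 read 782 and 845 against 595 and 561 (−0.48 ± 0.21, adjusted p = 0.0958), and was lower with the HSC arrays alone (0.00193) or without ESC Zfx-flox replicate 1 (0.0315) or 2 (0.0288). For both genes, ESC arrays enter these p-values only through the shared estimate of the spread. Psmb8, called higher in ESC, read 2253 and 2357 against 2113 and 2152 and was not past the threshold (−0.11 ± 0.11, 95% interval −0.36 to 0.14). Tap2 read 268 and 297 against 352 and 366 (0.33 ± 0.17, adjusted p = 0.152) and was higher only with the HSC arrays alone (0.0234).

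Of 9 tested heavy chains 1 was higher and 1 lower in HSC. Their light chain B2m read 8497 and 9338 on the Zfx-flox and 10105 and 9827 on the Zfx-cko arrays (0.16 ± 0.09, 95% interval −0.05 to 0.37), and H2-D1 3280.0 and 3406 against 3546 and 3403 (0.06 ± 0.06, −0.09 to 0.20). H2-K1 read 5864 and 5820.1 against 6306 and 6617 (0.14 ± 0.06, adjusted p = 0.0839), and was higher with quantile normalization within cell types (0.20, adjusted p = 0.0149) or over all arrays (0.21, 0.0185), with the replicate number as a block (0.0341) and with the HSC arrays alone (0.0406). H2-T24, a nonclassical heavy chain, was lower, at 94.7 and 88.2 against 38.0 and 37.3 (−1.03 ± 0.21, adjusted p = 0.00421). H2-M3 was higher, at 421 and 464 against 857 and 835, 1.91-fold in mean signal (0.92 ± 0.11, adjusted p = 0.000263). H2-M3 was the only member called in the same direction in both cell types. H2-Q5, H2-Bl, H2-M10.1, H2-T3 and H2-T18 did not pass.

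The largest change of all members was that of H2-Ob, the beta chain of DO, which damps peptide exchange by DM and is best known from B cells. It read 244 and 239.7 on the Zfx-flox and 1644 and 1579 on the Zfx-cko arrays, 6.66-fold in mean signal (2.67 ± 0.19, adjusted p = 1.63e-05), and 0.628 and 4.93 and 0.930 and 1.22 on the ESC arrays. The alpha chain H2-Oa read 219 and 208 against 400.2 and 434 (0.92 ± 0.27, adjusted p = 0.0243). The groups of both chains were separate, but the H2-Oa call was lost without Zfx-cko replicate 1 (adjusted p = 0.0834) or 2 (0.118), without Zfx-flox replicate 1 (0.0836) or 2 (0.105), and with a lower or no pseudocount (0.0856 and 0.15). H2-DMa, the alpha chain of DM, read 262 and 293 against 498 and 503 (0.82 ± 0.18, adjusted p = 0.00634). Its other probe set, 1459872_x_at, read 125 and 120.4 against 144 and 119, which overlap, and with the mean of both sets the change was 0.45.

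The classical class II chains changed less. H2-Aa read 897 and 814 on the Zfx-flox and 1104 and 1054 on the Zfx-cko arrays (0.33 ± 0.14, adjusted p = 0.0878), and was higher without Zfx-null replicate 1 (0.0444) or 2 (0.0425) of ESC, with the replicate number as a block (0.0338), with the HSC arrays alone (0.0081) and with the mean of its probe sets (0.0352). H2-Ab1 read 395 and 471 against 453 and 424 (0.02 ± 0.35, 95% interval −0.78 to 0.83). The beta chain groups overlapped. H2-Eb1, a beta chain of the I-E molecule, read 178 and 173 against 298 and 200.4 (0.45 ± 0.21, adjusted p = 0.117) and was higher without Zfx-cko replicate 2 (0.72, adjusted p = 0.0371). Its partner H2-Ea was dim, at 33.8 and 32.8 against 38.5 and 20.6. Some mouse strains carry a null H2-Ea allele, and the labels name no strain. Cd74 read 135 and 86.2 against 155 and 90.6 (0.12 ± 0.27), H2-Eb2 and H2-DMb2 did not pass, and Ciita, at 33.0 and 25.4 against 37.5 and 9.27, was not tested. H2-Ke6 read 293 and 243 against 379.9 and 431 (0.58 ± 0.14, adjusted p = 0.012), a call lost without replicate 2 of Zfx-cko (0.49, adjusted p = 0.0853) or of Zfx-flox (0.45, 0.0856) and with quantile normalization of all arrays (0.0519).

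Markers of several cell types moved with the HSC comparison. Of 6 LSK markers 5 were higher in Zfx-cko, led by Flt3 (2.44), which multipotent and lymphoid-primed progenitors carry, and Meis1 (2.42). Of 4 tested B cell markers 1 was higher, Cd79b at 68.8 and 69.7 against 209 and 223. Summed signals of 7 B cell markers were 237 and 257 on the Zfx-flox and 411 and 458 on the Zfx-cko arrays, with Cd79a between 12.3 and 29.6 on all 4 and Ebf1 between 7.04 and 17.4. Of 5 tested dendritic cell markers 2 were higher and 1 lower, Zbtb46 at 272 and 254 against 57.4 and 75.4. Their list had sums of 716 and 794 against 2164 and 2250. That list shares Flt3 with the LSK list, at 289.7 and 367 against 1757 and 1901, and Flt3 alone carried the rise of the sum. Of 6 tested monocyte and macrophage markers 2 were higher, Lyz2 and Ccr2, with sums of 2179 and 2321 against 4709 and 4867, while Itgam read 0.479 to 4.14. Of 2 tested T and NK markers 0 passed, at an unadjusted p of 0.05 too, and Cd3e read 5.39 to 9.75. Of 5 tested fibroblast markers 2 were higher, Pdgfrb (2.00) and Thy1 (1.13), with sums of 458 and 445 on the Zfx-flox against 1188 and 1119 on the Zfx-cko arrays. Most of that rise was Pdgfrb, at 197 and 194 against 843 and 810. Col1a1 read 16.7 to 30.4 and Col3a1 7.41 to 10.9 on the HSC arrays. Mean signals of Pdgfra (48.1 against 34.6) and Dcn (22.8 against 17.3) were lower in Zfx-cko. The sort removed lineage-positive cells, and the part of any of these cells in the class II changes was not tested.

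The effect of Zfx loss itself differed between the cell types for 13 of 30 genes tested. A gene was tested here when bright enough in either cell type, which held in both for 22. The HSC effect minus the ESC effect was higher than 0 for 5 and lower for 8. Over all 14031 genes tested, 15.6% were higher and 15.2% lower, and higher calls made up 50.6% of all calls, or 37.4% with median centring. Class I genes made up all 8 lower differences (of 19 tested, median −0.30), and class II genes contributed 2 higher ones and 0 lower (of 10 tested, median 0.18). Of these, H2-T24 and H2-Ob were tested through their HSC signal alone. Their ESC signals were too dim to measure an ESC effect, so their differences rest on the HSC change. The other class II call, H2-DMa, was lost under 14 of 19 alternatives. Among the light chain, peptide supply and loading genes, 5 of 8 had a lower difference. These were Erap1 (−1.46 ± 0.17, adjusted p = 0.000448), Psmb8 (−1.40 ± 0.15), B2m (−1.11 ± 0.13), Tapbp (−1.07 ± 0.10) and Psmb10 (−0.74 ± 0.08). Of the 22 genes tested in both cell types, 4 were called in both, and 3 of them in opposite directions. The matching shares over all genes were not counted, so these counts do not set the members apart. Erap1 and Psmb10 were higher in Zfx-null ESC and lower in Zfx-cko HSC, and H2-Ke6 was lower in ESC and higher in HSC (1.16 ± 0.20). H2-Ob had the largest difference (2.81 ± 0.27, adjusted p = 0.000193), which missed the threshold without a pseudocount (3.46, adjusted p = 0.0586), with ESC signals near 0.

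Genes around the pathway were counted from lists, and up to 3 per comparison are named by the size of their change. Over all genes tested, 15.6% were higher and 14.7% lower in ESC, and 22.4% higher and 19.7% lower in HSC. Counts near these shares set no list apart, and the lists are short. Of 6 loading chaperones, 0 passed in ESC and 4 were lower in HSC. Pdia3, the oxidoreductase of the loading complex, fell from 227 ± 8.83 to 138 ± 12.8 (SD, n = 2; −0.67 ± 0.09), and Erp29 (−0.64 ± 0.09) and Canx (−0.60 ± 0.08) were lower too. At an unadjusted p of 0.05, limma would call 1 chaperone higher in ESC. Of 6 constitutive proteasome counterparts and activators, 1 was higher and 1 lower in ESC (Psme1 0.29 ± 0.06 and Psmb6 −0.30 ± 0.08), and 5 were lower in HSC. The latter included Psme3, a nuclear proteasome activator (−0.90 ± 0.12), and Psmb5 and Psmb7, the constitutive subunits that Psmb8 and Psmb10 replace (−0.74 ± 0.07 and −0.63 ± 0.06). Lower calls in HSC thus included constitutive subunits as well as Psmb10.

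Of 7 class II promoter factors, 2 were lower in ESC, Nfyb (−0.38 ± 0.07) and Creb1 (−0.24 ± 0.05). In HSC 3 were higher and 2 lower, and with 7 genes the counts in neither cell type set this list apart from all genes. The subunits of the RFX complex, which binds the X box, went apart: Rfx5 rose from 1547 ± 1.48 to 2528 ± 94.3 (SD, n = 2; 0.70 ± 0.11), while Rfxap fell from 327 ± 18.3 to 134 ± 18.2 (−1.20 ± 0.19). Nfyb, a subunit of the Y box factor, was lower (−0.52 ± 0.07). Of the proteases that prepare class II peptides, 3 of 5 tested were higher in ESC, Ctsl, Ctsb and Ctsd, by 0.30 to 0.39. In HSC 2 of 6 were higher, Lgmn (1.41 ± 0.21) and Ctss, the cathepsin that removes the invariant chain (1150.0 ± 57.0 to 2733 ± 109, 1.24 ± 0.22), and 3 were lower, of which Ctsl changed most (−0.62 ± 0.10).

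Class I-like molecules, which resemble class I heavy chains but mostly bind other cargo, were higher in 1 of 5 tested in ESC and in 4 of 6 in HSC, with 0 lower. Over all genes 15.6% were higher in ESC and 22.4% in HSC. Cd1d1, which presents lipids to NKT cells, was the only one called in ESC (from 166 and 176 to 349 and 407, 1.08 ± 0.10) and was also higher in HSC (1.29 ± 0.10). Cd1d2 rose in HSC from 168 ± 1.71 to 948 ± 10.4 (2.40 ± 0.35), and Fcgrt, the neonatal Fc receptor, from 39.3 ± 2.17 to 122 ± 10.6 (1.34 ± 0.16). Of the costimulatory genes, Cd40 was higher in ESC (1.11 ± 0.22, 1 of 3 tested) and Cd86 in HSC (1.57 ± 0.27, 1 of 2 tested).

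Interferon genes gave a mixed picture. Of 14 tested receptors and signalling genes, 3 were higher and 0 lower in ESC, with the kinase Jak2 at 1.39 ± 0.08, the receptor Ifnar2 at 1.01 ± 0.11 and Jak1 at 0.29 ± 0.09. Over all genes 15.6% were higher and 14.7% lower in ESC, so 3 of 14 does not set these genes apart. In HSC 4 were higher and 4 lower, led by the inhibitor Socs3 (1.48 ± 0.22), the receptor Ifngr1 (−1.12 ± 0.17) and Ifnar2 (0.85 ± 0.11). Of interferon-induced genes, 6 of 15 tested were higher and 1 lower in ESC. Ifit2, an antiviral RNA-binding protein, rose from 8.52 ± 1.14 to 90.9 ± 0.362 (2.21 ± 0.13), and the guanylate-binding proteins Gbp2 and Gbp3 by 1.35 ± 0.08 and 1.24 ± 0.14. In HSC 5 of 21 were higher and 6 lower, and over all genes 22.4% were higher and 19.7% lower, so neither these counts nor the 4 and 4 of the signalling genes set the lists apart. The GTPases Iigp1 and Igtp fell from 5761 ± 216 to 740.3 ± 5.61 (−2.94 ± 0.20) and from 5146 ± 261 to 758 ± 65.4 (−2.74 ± 0.12), while the antiviral enzyme Rsad2 was higher (1.45 ± 0.14). Gbp2 and Gbp3, chosen here after their values were seen, were lower in HSC (−1.04 ± 0.08 and −0.66 ± 0.14), opposite to ESC. Psme2, Isg15, Ifi44 and 6 class I-like genes had no probe set with a single symbol and were not analysed here.

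**Figure D4:**
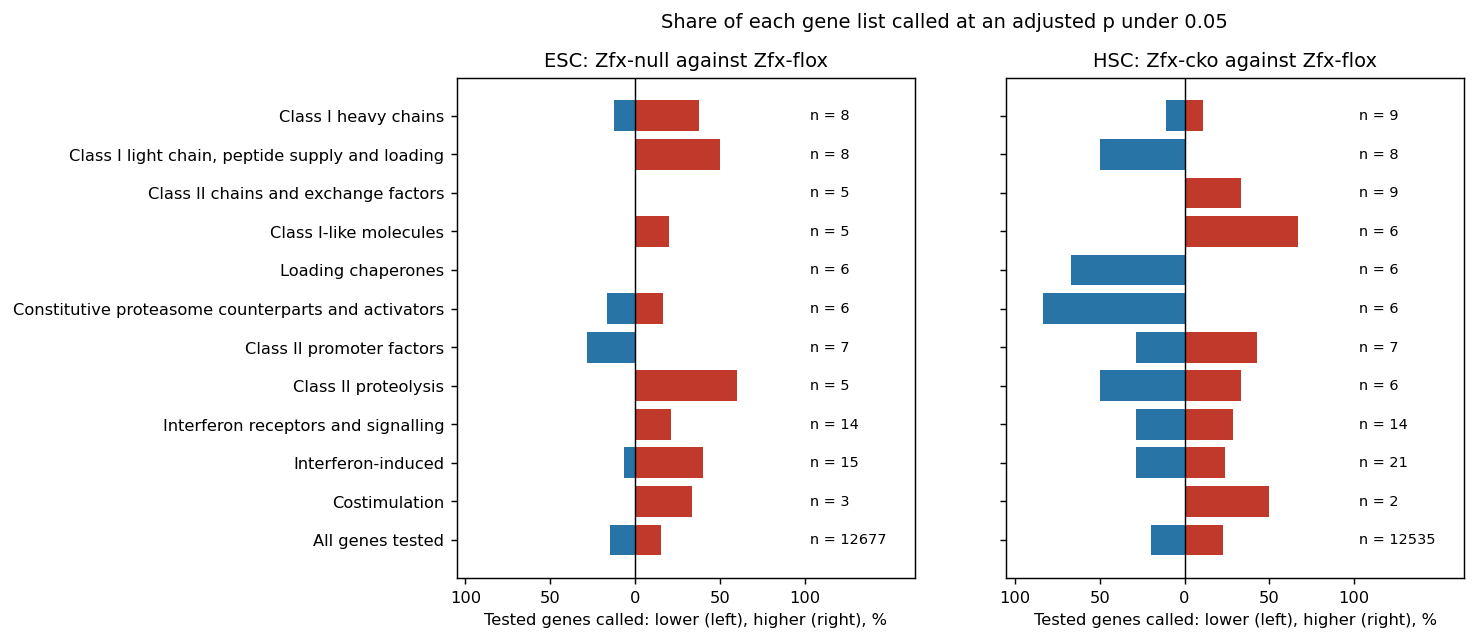
Share of the tested genes of each list that were higher (red, to the right) or lower (blue, to the left) at an adjusted p under 0.05, in ESC and in HSC, with the number tested beside each bar and all genes at the bottom. In HSC the chaperone and proteasome bars point to the left alone and the class I-like bar to the right alone, and several lists hold under 7 tested genes, so 1 gene moves their share widely.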

How the data were processed

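The arrays were Affymetrix Mouse Genome 430 2.0. The authors deposited linear intensities per probe set, and the submitters' processing notes name GCOS 1.4. No source used here states the summarisation settings. The trimmed mean was 250.0 in each deposited column, which shows global scaling by the authors. ESC RNA had 1 round of amplification and HSC RNA 2, per the labels' protocols. Columns were matched to samples through their names, with 0 left over.

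Gene symbols came from the platform annotation of the probe sets (34945 with 1 gene symbol, 932 with several, 9160 with none, 64 controls), and only those with 1 symbol were named. From the intensities, log2(value + 14.2) was computed, with the pseudocount at the 25th percentile of all values, which understates changes of dim genes. The 8 arrays entered 1 limma fit (version 3.58.1, R 4.3.3) with a mean for each of the 4 groups, a variance trend and 4 residual degrees of freedom. Adjusted p-values follow Benjamini and Hochberg over all genes tested, so every adjusted p printed is limma's, and single probe sets given by identifier were tested in the same kind of fit over all probe sets. The code was checked on simulated data. With 2 arrays per group no permutation test could pass the threshold, and arrays give no counts, so their number limits the precision. The median standard error was 0.146 in ESC and 0.145 in HSC. Promoter sequences are from RefSeq (GRCm38.p6), searched with Python 3.11.15, and drawing used matplotlib 3.10.9.

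The genes, lists, markers and motifs were chosen with earlier results of these data known. All members could be named, the dim ones by range, and of other lists up to 3 genes per comparison with the largest change past the threshold. Other exceptions are stated where they occur. Replicate numbers pair no samples by the labels. Alternatives changed the pseudocount, the scaling, the filter, the choice of probe set, the variance trend, the arrays fitted and the replicate block, and left out each array in turn.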

Additional observations from a re-analysis of the deposited data

Results flagged for a closer look

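The 13 members below are singled out because the effect of Zfx loss differed between HSC and ESC in a limma test of that difference, with an adjusted p under 0.05. Each value is the HSC effect (Zfx-cko minus Zfx-flox) minus the ESC effect (Zfx-null minus Zfx-flox) on the log2 scale. The cell types also differ in amplification, culture against marrow, and exposure to pI·C and Cre, which cannot be told apart here.

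Of the class I supply and loading genes, Erap1 differed by −1.46, Psmb8 by −1.40, B2m by −1.11, Tapbp by −1.07 and Psmb10 by −0.74. B2m and Psmb8 moved in ESC and not past the threshold in HSC, Tapbp moved in HSC and not past it in ESC, and Erap1 and Psmb10 were called in both, in opposite directions. Of the class I heavy chains, H2-T24 differed by −1.11, H2-D1 by −0.40 and H2-K1 by −0.27, and H2-Bl differed by 1.31 and H2-M3 by 0.57. H2-T24 was not tested in ESC itself, where it read 8.88 to 11.4. Of the class II genes, H2-Ob differed by 2.81 and H2-DMa by 0.82, and H2-Ke6, which is no MHC molecule, differed by 1.16. H2-Ob too was tested through its HSC signal alone.

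Calls at the edge were those of H2-K1 (adjusted p = 0.042), H2-DMa (0.04), H2-M3 (0.0251) and H2-T24 (0.0218). The call was lost under 13 of 19 alternatives for H2-K1, 14 of 19 for H2-DMa (0.14 with the mean of its probe sets, adjusted p = 0.609), 7 of 19 for H2-M3 and 7 of 18 for H2-T24. That of H2-Bl was lost without ESC Zfx-flox replicate 1 (adjusted p = 0.0543) or HSC Zfx-cko replicate 1 (0.0507), that of H2-D1 under 3 of 19 and that of H2-Ob under 1 of 19.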

How the results depend on the processing

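The same call under every alternative that could be fitted was kept by 5 of 9 called members in ESC, 7 of 10 in HSC, 6 of 13 for the difference between cell types and 21 of 22 between the Zfx-flox groups. Over single genes, settings left the call as it was 1998 times (83 of them with the sign of an uncalled change turned), ended a call 84 times, added one 26 times and turned the sign of a called value 2 times. The latter came with the mean of all probe sets, for the difference of H2-D1 (0.10, adjusted p = 0.718) and for Tapbp between the Zfx-flox groups (−1.24, adjusted p = 1.53e-06). Higher differences fell from 5 genes to 3 without a pseudocount, with quantile normalization over all arrays and with median centring. Genes lower in HSC than in ESC Zfx-flox fell from 2 to 1 with quantile normalization over all arrays and with the filter at the 60th percentile, and genes higher in Zfx-cko rose from 5 to 8 with the HSC arrays alone. Leaving out single arrays gave 6 to 8 higher and 1 to 2 lower in ESC, 3 to 6 higher and 4 to 6 lower in HSC, 2 to 5 higher and 6 to 8 lower differences, and 19 to 20 higher and 1 to 2 lower between the Zfx-flox groups. The fewest higher differences (2) came without HSC Zfx-cko replicate 1, with 3 without HSC Zfx-cko replicate 2, HSC Zfx-flox replicate 1 or ESC Zfx-flox replicate 2. The fewest higher in HSC (3) came without HSC Zfx-flox replicate 2, and the single lower gene in ESC without ESC Zfx-flox replicate 2 and between the Zfx-flox groups without either ESC Zfx-flox array. The causes were not tested. The median of all genes between the Zfx-flox groups moved from −0.20 to 0.12 with quantile normalization over all arrays, and that of the difference from 0.05 to −0.07 with median centring.

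Same-numbered arrays deviated together at r = 0.345 in ESC and 0.0934 in HSC across genes, and the labels state no pairing. With the replicate number as a block, 6 members were higher and 2 lower in ESC, 7 higher and 5 lower in HSC, 5 higher and 8 lower for the difference, and 20 higher and 2 lower between the Zfx-flox groups. The calls it changed were those of H2-M3 in ESC and of H2-Aa and H2-K1 in HSC, where class I genes higher went from 1 to 2.

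With 2 arrays per group and a median standard error of 0.145 in HSC, changes near that size could not be detected. Signals under about 14.2 carry little information, which touches H2-T24, H2-Ea, H2-Ob, H2-D4, H2-M9 and H2-Q2 on every ESC array and H2-Ab1, H2-Oa and H2-M10.1 on some. Probe sets of near-identical heavy chains may share transcripts.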

Other observations

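A further 15 probe sets carry several gene symbols of which at least 1 begins with H2-, so they were left out of the members and are given by their identifiers. Of 7 tested in ESC 1 passed the threshold, 1449875_s_at, at 100.1 and 91.7 on the Zfx-flox and 162 and 142 on the Zfx-null arrays (log2 change 0.59, adjusted p = 0.00241). Of 13 tested in HSC 3 passed, all higher in Zfx-cko. The probe set 1419658_at read 413 and 426 on the Zfx-flox and 1079 and 1062 on the Zfx-cko arrays (log2 change 1.32, adjusted p = 0.000942), and 1449556_at, which shares its symbols, read 3085 and 3147 against 3817 and 3920.5 (0.31). The probe set 1422201_at read 22.0 and 34.1 against 69.0 and 57.3 (0.88, adjusted p = 0.022). The brightest of the 15 in HSC Zfx-flox, 1418536_at, read 4805 and 4695 against 4987 and 4197 in HSC and 85.3 and 85.0 on the ESC Zfx-flox arrays, with no call for Zfx loss in either cell type.

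Of the 34 members, 15 had more than 1 probe set, and 13 of the representative sets carried a suffix that marks shared or multiple transcripts. The probe sets of 1 gene often disagreed in level, as for Tap1, where 3 of 4 sets read under 25 on every array, and for H2-Ab1, where 2 of 3 read under 34.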
